A study of Mus musculus with 18 samples.

Results

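The 17 libraries of epididymal white fat (eWAT) in the count table were divided by their leptin transcript, and the transcripts that follow this division are described. A library was low-leptin when its Lep count, divided by the sum of all counts in its column and scaled to counts per 1000000 (CPM), lay under 1000, and high-leptin at 1000 or more, whatever its study group. By this rule 6 of the 17 libraries were low-leptin and 11 were high-leptin. The members were thus chosen by a measured value, the Lep level, and the division is no condition of the study, so Lep itself is described and not tested. The libraries came from C57BL/6 males labelled WT, of the generation labelled Fm, sired, per the labels, from zygotes injected with the microRNA let-7d (label IVF_Let7d, 6 libraries), with let-7e (IVF_Let7e, 6 libraries) or with a negative control (IVF_NegativeControl, 5 of 6 labelled samples; control 5 was not analysed here). All had eaten chow from weaning to week 6 and then a diet labelled LFD, which the growth protocol ends at week 15 while the age label reads 24 weeks; the labels do not settle which holds. The sample identifiers fall into an early series (let-7d 1, let-7d 2, let-7e 1 and let-7e 2) and a late series (the other 13). The labels give each library its own sample but do not say that each is a separate animal, so the p-values below measure the spread between these samples.

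Leptin is a hormone that fat cells release in proportion to their lipid stores. It acts on its receptor in the brain, chiefly in the hypothalamus, to lower food intake and raise energy use, through the kinase JAK2 and the transcription factor STAT3. Its transcript is made in mature fat cells, more in large than in small ones, and falls on fasting. Other transcripts of fat are known to vary with the growth of the fat pad, among them Mest, Sfrp5, Npr3 and Trp53inp2, and the collagen VI chains form the pericellular net around fat cells. The amount of Lep in a whole fat pad library depends on the share of fat cells and on the Lep RNA per cell, and fewer cells of a type cannot be told apart from less RNA per cell in these bulk libraries.

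Lep counts by column total spanned 210.4 to 2999 CPM. The 6 low-leptin libraries were control 1 at 210.4 CPM, control 3 at 356.5, let-7e 4 at 508.6, control 4 at 575.8, let-7d 5 at 695.4 and control 6 at 835.6. No library lay between 835.6 CPM, just inside the low side, and 1414 CPM in let-7e 3, just outside it. The high-leptin libraries rose from let-7e 3 through let-7e 6 (1432 CPM), let-7e 2 (1526), let-7d 4 (1663), let-7e 1 (1766), let-7e 5 (1796), control 2 (2093), let-7d 2 (2222), let-7d 6 (2305) and let-7d 3 (2324) to let-7d 1 (2999). The 95% exact Poisson intervals, which cover counting error only, ran from 823.9 to 847.3 CPM in control 6 and from 1397 to 1432 CPM in let-7e 3, and the fewest Lep counts in a library were 4334. The low side thus held 4 of the 5 controls, 1 of the 6 let-7d libraries and 1 of the 6 let-7e libraries, and all 4 early libraries were on the high side. Means were 530.4 ± 226.1 CPM (SD, n = 6) and 1958 ± 483.5 CPM (SD, n = 11). After scaling by trimmed mean of M-values (TMM) the same libraries fell on each side, with 248.3 to 801.7 CPM against 1389 to 2546 CPM, a log2 difference of −1.82 that the rule itself fixes.

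**Figure D1:**
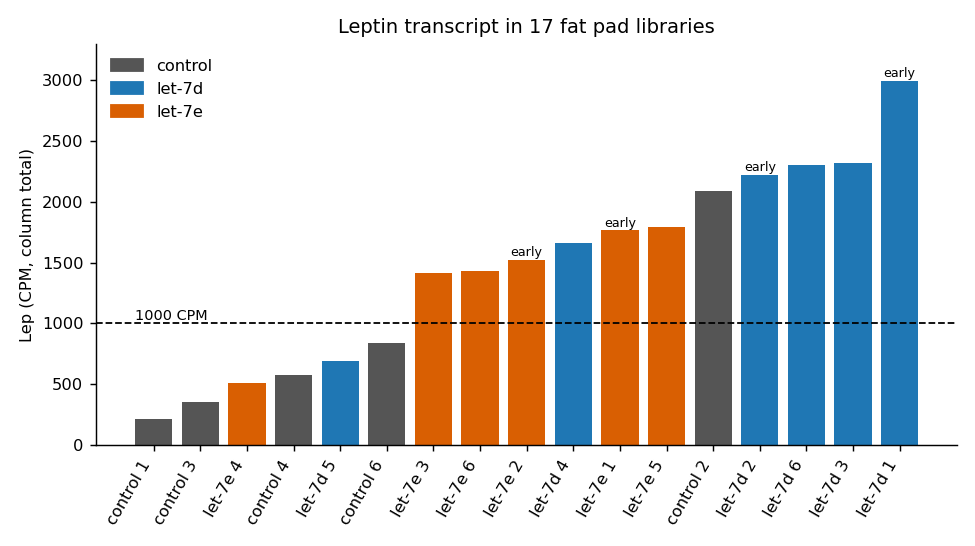
Lep in each of the 17 libraries, in CPM of the column total (vertical axis), ordered by level; bar colours give the study group, "early" marks the 4 libraries of the early identifier series, and the dashed line is 1000 CPM. The 6 bars under the line reach 835.6 CPM at most and the 11 above it begin at 1414 CPM.

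Lep (ENSMUSG00000059201.12) lies at chr6:29060220-29073877 on the plus strand of GRCm38. The 250 bases before its RefSeq start (GRCm38.p6) are shown beside those of Col6a2, the gene with the smallest p in the comparison and lower where Lep is low, and of Cfd, the fat-cell secreted protein that was higher there. They were searched for the motif of C/EBP, a family of fat-cell transcription factors known to act on Lep. Sequences run 5′ to 3′ on the gene's strand. Capitals mark a match to TTGCNNAA (C/EBP) or GGGCGG (GC box) on either strand.
Lep promoter (chr6:29059971-29060220, plus strand): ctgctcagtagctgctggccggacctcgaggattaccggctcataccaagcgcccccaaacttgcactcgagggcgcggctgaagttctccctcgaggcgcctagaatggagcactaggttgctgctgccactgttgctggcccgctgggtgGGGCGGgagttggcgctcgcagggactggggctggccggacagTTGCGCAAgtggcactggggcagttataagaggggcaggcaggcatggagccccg
Col6a2 promoter (chr10:76623631-76623880, minus strand): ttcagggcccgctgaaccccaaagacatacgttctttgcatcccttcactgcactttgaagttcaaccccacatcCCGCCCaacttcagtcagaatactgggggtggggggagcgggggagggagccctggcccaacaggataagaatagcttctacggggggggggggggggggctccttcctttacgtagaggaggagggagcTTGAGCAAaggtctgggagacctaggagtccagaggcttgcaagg
Cfd promoter (chr10:79890603-79890852, plus strand): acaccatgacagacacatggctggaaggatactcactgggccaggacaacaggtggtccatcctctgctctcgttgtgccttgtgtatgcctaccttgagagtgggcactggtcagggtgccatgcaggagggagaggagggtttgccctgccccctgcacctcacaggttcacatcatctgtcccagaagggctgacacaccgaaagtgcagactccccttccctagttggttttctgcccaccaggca
Lep and Col6a2 each had 1 C/EBP match, which began 55 and 45 bases before the start, and 1 GC box, and the Cfd window held neither. RefSeq gives Col6a2 a further start downstream, whose window held no C/EBP match and 3 GC boxes. The motif TTGCNNAA occurred in 9.56% of all 32851 windows of this length, in 7.84% of the windows of tested genes, in 8.99% of those of genes lower in low-leptin libraries and in 8.76% of those of genes higher there. GGGCGG occurred in 32.7% of all windows, 54% of tested, 58.4% of lower and 50% of higher genes, and TATAAA, in none of the windows printed, in 12.4%, 7.11%, 7.87% and 8.76%. These shares describe letters in a window and say nothing of binding, and symbols matched windows for 11824 of the 16451 tested genes.

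Column totals ranged from 12717365 to 28972306 counts. Adipoq, which encodes the fat cells' adiponectin, was at 1650 CPM or more in each library, as the tissue label requires. Transcripts of neighbouring organs reached some libraries on both sides. The summed CPM of 10 measured epididymis and testis genes was 17480 in control 3 and 1240 in control 6, against at most 63.81 elsewhere. That of 12 smooth muscle genes was 19810 in control 3 against at most 1184 elsewhere. The sum of 13 genes of absorptive and ciliated epithelium was 442.8 in control 3, 364 in let-7d 5 and 822.6 in let-7d 1, against at most 120 elsewhere. Results are therefore also given without control 3, control 6, let-7d 1 and let-7d 5. The libraries kept still include some epithelial RNA on the high side, with sums of 120 CPM in let-7d 3 and 63.8 CPM in let-7e 1. In control 1 and control 4 the transcripts of fat synthesis were high, and results that move with these libraries are given without them as well.

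In the comparison of the division, 603 of 16451 genes passed an adjusted p of 0.05 (3.67%; edgeR quasi-likelihood test with the series as a term, Benjamini-Hochberg adjustment), and 4032 (24.5%) had an unadjusted p under 0.05. Of the 603 genes, 222 (1.35%) were higher and 381 (2.32%) were lower in low-leptin libraries. Log2 fold changes below are low-leptin minus high-leptin, and levels are TMM-scaled CPM. Since the 4 early libraries are all high-leptin, the fold changes come from the 6 low-leptin and 7 high-leptin libraries of the late series, and no value within the early series exists. The median log2 fold change over all tested genes was 0.05, and 57.6% of genes lay above 0 and 42.4% below. Every low-leptin library lay below every high-leptin one for 97 genes (0.59%), and above for 37 genes (0.225%).

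The division overlaps the study groups in part, so the group was added as a further term. Then 69 genes passed (0.419%), 64 lower (0.389%) and 5 higher (0.0304%), all among the 603, and all 603 kept their sign. The 69 rest on few libraries: without control 2, the only high-leptin control, edgeR called 0 genes (1680 at an unadjusted p under 0.05), without let-7e 4 it called 13 and without let-7d 5 it called 19, whereas 141 passed without control 6. Within the 12 let-7d and let-7e libraries, of which 2 are low-leptin, 6 genes passed (0.0365%), 5 of them lower (0.0304%; Npr3, Cryab, Tspan17, Il17d and Golga7b) and 1 higher (Hoxa9, 0.00608%). All but Golga7b were among the 603, of which 601 kept their sign there; apart from Npr3 these names were taken after their values were seen. Without the 4 libraries with organ or epithelial transcripts 575 genes passed (3.5%), 198 higher (1.2%) and 377 lower (2.29%), of which 280 were among the 603, and 600 of the 603 kept their sign.

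**Figure D2:**
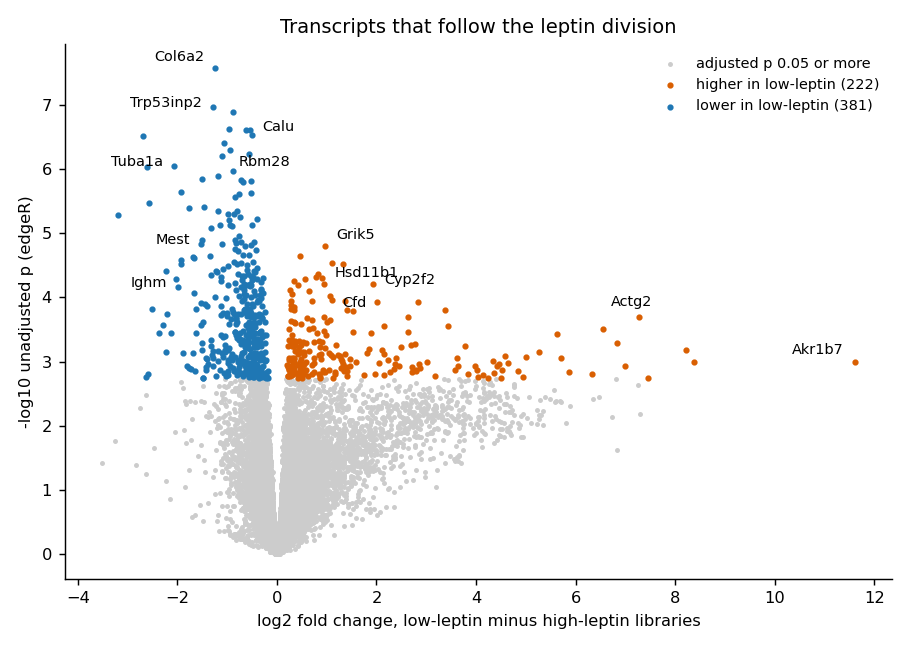
Each point is 1 of 16451 genes, by log2 fold change between low-leptin and high-leptin libraries (horizontal axis) and by −log10 of the unadjusted edgeR p (vertical axis); colours mark adjusted p under 0.05. The lower genes (381, blue) hold the smallest p-values, led by Col6a2, and the higher genes (222, orange) run out to Akr1b7 at 11.61, which rests on control 3.

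The 3 chains of collagen VI fell, and Col6a2 had the smallest p of all tested genes. Col6a2 (chr10:76595762-76623630) stood at 295.4 CPM in control 1, 414.9 in control 3, 470.4 in control 4, 457.8 in control 6, 496.8 in let-7d 5 and 431.1 in let-7e 4. The 7 late high-leptin libraries lay at 794.7 to 1165 CPM, so within the late series the sides did not overlap. The 4 early libraries, all high-leptin, were lower at 430.2 to 572.1 CPM, with let-7d 1 inside the low-leptin range. The log2 fold change was −1.24 (SE 0.126, edgeR adjusted p = 0.000448), a 2.35-fold lower level. With the group as a term it was −1.17 (adjusted p = 0.00874), and in the let-7 libraries alone −1.12 (adjusted p = 0.0588).

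Col6a1, whose product pairs with those of Col6a2 and Col6a3 in the collagen VI trimer, was at 433.5 ± 94.0 CPM (SD, n = 6) on the low side and 788.0 ± 221.0 (n = 11) on the high side. Its log2 fold change was −1.10 (SE 0.142, edgeR adjusted p = 0.000859). Col6a3 was at 133.6 ± 19.94 against 220.0 ± 44.3 CPM, with low-leptin libraries at 102.4 to 156.0 CPM and high-leptin ones at 157.5 to 300.1 CPM, which did not overlap. Its log2 fold change was −0.85 (SE 0.122, adjusted p = 0.00185). Each of the 3 chains passed without the 4 organ or epithelial libraries too, at −1.34, −1.34 and −0.98.

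Of 29 measured genes of a list of collagens and matrix proteins, 11 fell and none rose, beside 2.32% of all genes called lower. Of the 29, 24 lay below 0, beside 42.4% of all genes. The median was −0.47 against 0.05 over all genes, −0.39 with the group as a term (4 called) and −0.30 in the let-7 libraries alone. The fibrillar collagen V chains fell together: Col5a1, which starts collagen fibrils, was at 203.8, 179.9, 221.6, 233.7, 263.8 and 275.7 CPM in control 1, 3, 4, 6, let-7d 5 and let-7e 4, and at 286.9 to 519.1 CPM on the high side. The sides did not overlap, and its log2 fold change was −0.89 (SE 0.102, edgeR adjusted p = 0.000633). Col5a2 followed at −0.71 (adjusted p = 0.0135) and Col5a3 at −0.78 (adjusted p = 0.017). Of the basement membrane collagens, Col15a1 fell by 0.86 (adjusted p = 0.00732), Col4a2 by 0.54 (0.0102) and Col18a1 by 0.63 (0.0164). For Col4a2 and Col18a1 the early high-leptin libraries were again lower, down to 971.3 and 162.3 CPM, which is below every low-leptin library. The matricellular protein gene Sparc (−0.57, adjusted p = 0.0372) and Adamts2, which trims procollagen (−0.59, adjusted p = 0.0174), completed the 11; the call of Sparc was lost on leaving out any 1 of 6 libraries.

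The main fibril collagens of the tissue did not pass: Col1a1 was at 394.4 ± 85.52 against 404.4 ± 150.3 CPM (log2 fold change −0.32, SE 0.173, adjusted p = 0.271) and Col3a1 at −0.51 (SE 0.16, adjusted p = 0.0731). Fbn1, which encodes fibrillin and the hormone asprosin, had −0.89 (SE 0.293, adjusted p = 0.0845). Over all 35 measured collagen chain genes, a family picked after values were seen, 9 fell and 1 rose, beside 2.32% and 1.35% of all genes, with a median of −0.07. The 9 are the collagens already named in the list of collagens and matrix proteins. The 1 that rose was Col20a1, at 3.869 ± 1.658 against 2.214 ± 0.5243 CPM (0.93, adjusted p = 0.0454), a call lost on leaving out any 1 of 12 libraries.

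Several families met among the lower genes after values were seen are given as description. Lists and families can share genes, so their counts are not separate results. Of 23 basement membrane genes 6 fell and 1 rose, beside 2.32% and 1.35% of all genes, and none passed with the group as a term: the linker proteins' genes Nid2 (−0.83, edgeR adjusted p = 0.00991) and Nid1 (−0.61, adjusted p = 0.0291) were below every high-leptin library in every low-leptin one, though Nid1 was no longer called without let-7d 3 or without let-7e 5, while the laminin chain Lama1 rose (1.97, adjusted p = 0.0463), a call lost on leaving out any 1 of 13 libraries. Of 27 genes of collagen folding and secretion 9 fell and none rose, beside 2.32% of all genes called lower. Serpinh1, the collagen chaperone HSP47, was at 376.2 to 647.7 CPM (median of the high side 763.7, log2 fold change −0.77, adjusted p = 0.0124). The prolyl isomerase Ppic (−0.51, adjusted p = 0.00516) and Sec23a, a coat protein of vesicles that leave the endoplasmic reticulum (−0.29, adjusted p = 0.0179), did not overlap between sides. P3h1 and Crtap, partners in collagen prolyl hydroxylation, had −0.43 and −0.35 (adjusted p = 0.0219 and 0.0387), and Pcolce2, an enhancer of procollagen cleavage, −1.03 (adjusted p = 0.0257). P4hb, the hydroxylase subunit and disulfide isomerase, had −0.25 (adjusted p = 0.0389). The calls of P4hb and Crtap were lost on leaving out any 1 of 9 and 7 libraries, and that of Pcolce2 without control 2. With the group as a term none of the 27 passed, at a median of −0.23 against −0.25 without it.

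Of 14 genes known to track the expansion of fat pads, 5 fell and all 14 lay below 0, beside 2.32% and 42.4% of all genes, with a median of −0.50 (−0.49 with the group as a term, 3 called; −0.50 without the 4 organ or epithelial libraries, 5 called). Earlier results of these libraries were known when the list was made, so its direction is no independent evidence. Trp53inp2, a regulator of autophagy and transcription, was at 441.2, 410.7, 476.1, 284.7, 542.3 and 518.6 CPM in control 1, 3, 4, 6, let-7d 5 and let-7e 4. The high-leptin libraries spanned 747.9 to 1349 CPM (median 890.0). The sides did not overlap, and the log2 fold change was −1.29 (SE 0.145, edgeR adjusted p = 0.000633), a 2.44-fold lower level.

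Npr3, the clearance receptor for natriuretic peptides, stood at 298.4 CPM in control 1, 324.6 in control 3, 578.6 in control 4, 722.7 in control 6, 544.9 in let-7d 5 and 613.1 in let-7e 4. The 11 high-leptin libraries lay between 1048 and 1560 CPM, so the 2 libraries with the least Lep also had the least Npr3, and the sides were apart. The log2 fold change was −1.18 (SE 0.177, edgeR adjusted p = 0.00253), −1.08 with the group as a term (adjusted p = 0.0429) and −1.02 in the let-7 libraries alone (adjusted p = 0.0478). Mest, an imprinted gene of fat-cell enlargement, was at 114.8, 37.73, 90.22, 131.8, 81.19 and 89.36 CPM in the same order, against 148.0 to 395.9 CPM (median 230.2). It too did not overlap, with the lowest value in control 3, and its log2 fold change was −1.53 (SE 0.253, adjusted p = 0.00506; with the group as a term −1.66, adjusted p = 0.0193).

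The caveolin genes Cav1 and Cav2, whose products shape the membrane pits called caveolae, fell less: Cav1 was at 2356 ± 281.6 against 3288 ± 316.8 CPM (−0.49, SE 0.103, edgeR adjusted p = 0.0177) and Cav2 at 431.3 ± 60.71 against 672.2 ± 113.4 CPM (−0.51, SE 0.108, adjusted p = 0.0175). Over 12 caveola genes, a family picked after values were seen, Cavin3 (−0.73, adjusted p = 0.00732) and the membrane-bending ATPase Ehd3 (−1.14, adjusted p = 0.00329) fell as well, 4 of 12 beside 2.32% of all genes, of which Ehd3 alone passed with the group as a term (−1.07, adjusted p = 0.016). Other members of the expansion list did not pass. Sfrp5, a secreted Wnt inhibitor, had only 3.953 CPM in control 1 but 278.0 CPM in control 6, against 73.32 to 408.7 CPM on the high side (log2 fold change −1.46, SE 0.631, adjusted p = 0.167). Sncg, the synuclein of fat cells, ranged from 41.99 CPM in control 1 to 957.0 CPM in control 6 (−0.96, SE 0.435, adjusted p = 0.185). Vldlr, a receptor for triglyceride-rich particles, had −0.52 (adjusted p = 0.0537) and the imprinted Nnat −0.30 (SE 0.541, adjusted p = 0.773), the latter from 50.07 CPM in control 1 to 2478 CPM in control 6. Control 1, the library with the least Lep, was thus also lowest for Sfrp5, Sncg and Nnat, and control 6, the low-leptin library with the most Lep, was highest on that side.

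**Figure D3:**
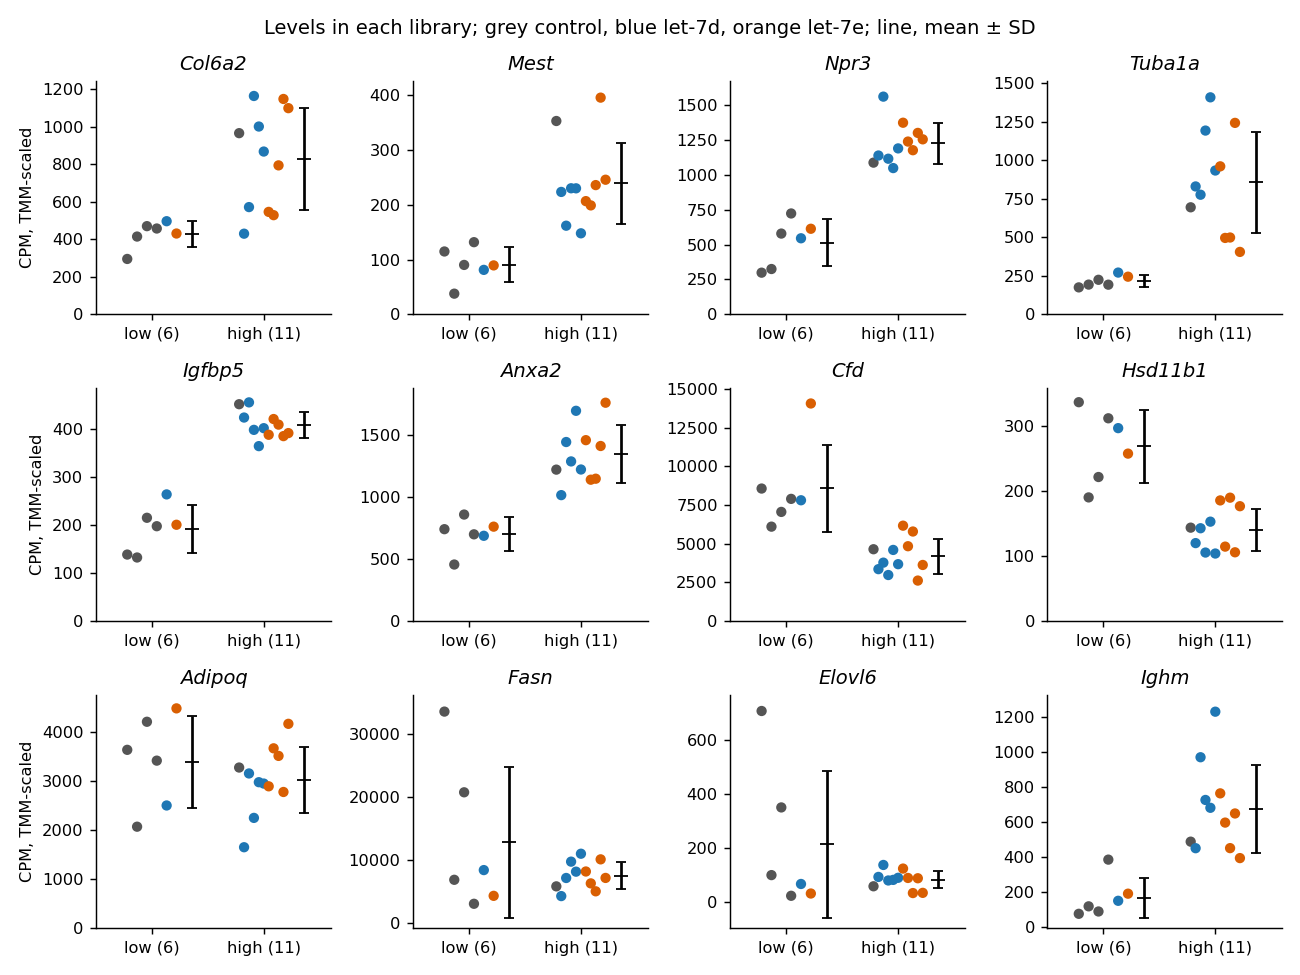
Levels of 12 genes in each library (TMM-scaled CPM, linear axes), low-leptin at left and high-leptin at right in each panel; points are libraries coloured by study group, and the bars give mean ± SD (n = 6 and 11). Mest, Npr3, Tuba1a, Igfbp5, Anxa2 and Ighm do not overlap between sides, Col6a2 overlaps only through early libraries, and Fasn and Elovl6 are spread widest in the low-leptin libraries.

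Among structural genes of the cell, Tuba1a, an alpha-tubulin, fell most of the tubulins. It stood at 175.0, 193.1, 224.3, 192.5, 271.2 and 244.5 CPM in control 1, 3, 4, 6, let-7d 5 and let-7e 4, and at 405.5 to 1410 CPM on the high side (median 830.9). The log2 fold change was −2.07 (SE 0.273, edgeR adjusted p = 0.00108), a 4.21-fold lower level, and −1.83 with the group as a term (adjusted p = 0.0133). Tuba1b, at −0.74 (adjusted p = 0.0028), was the other of 13 tubulin genes that passed, beside 2.32% of all genes. The alpha-tubulins are near-identical in sequence, and how reads shared between them were counted is not given in the sources used here, so the split between them is uncertain. Of 10 annexin genes, which encode calcium-dependent membrane binders, 4 fell, beside 2.32% of all genes, and 1, Anxa2, passed with the group as a term (−0.92, adjusted p = 0.0494): Anxa2 was at 455.0 to 856.8 CPM against 1013 to 1756 CPM with no overlap (−0.99, SE 0.15, adjusted p = 0.0027), and Anxa1, Anxa6 and Anxa5 had −0.87, −0.66 and −0.52 (adjusted p = 0.0166, 0.01 and 0.0251), the last no longer called without control 2. Tubulins and annexins were likewise picked after values were seen.

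The other lower genes with the smallest p-values belong to no list. Igfbp5, which binds insulin-like growth factors, was at 132.2 to 263.3 CPM in the low-leptin libraries and at 363.6 to 454.5 CPM in the high-leptin ones, with controls 1 and 3 lowest. The gap between sides exceeded the range of the high side, and the log2 fold change was −1.07 (SE 0.132, edgeR adjusted p = 0.000721). Gamt, which makes creatine from guanidinoacetate, was at 43.17 ± 6.745 against 76.18 ± 15.34 CPM (−0.97, SE 0.116, adjusted p = 0.000633). The smaller changes of Ttc28 (−0.55) and of the quinone reductase Nqo2 (−0.57) were as regular, and neither overlapped between sides: Nqo2 was at 17.35 to 20.8 CPM against 23.38 to 31.81 CPM. The imprinted gene Ndn, an inhibitor of fat-cell formation, was named after its values were seen and had −0.75 (SE 0.108, adjusted p = 0.00175).

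Of the 10 lower genes with the smallest p-values, 2 lie near Lep itself on chromosome 6. Rbm28 (chr6:29123576-29165006, minus strand), which encodes a nucleolar protein of ribosome assembly, starts 104.8 kb from the Lep start. Its levels were 67.2 CPM in control 1, 61.16 in control 3, 81.74 in control 4, 67.13 in control 6, 98.29 in let-7d 5 and 71.49 in let-7e 4, against 113.5 to 171.9 CPM. The sides did not overlap, and the log2 fold change was −0.95 (SE 0.12, edgeR adjusted p = 0.000842; −0.87 with the group as a term, adjusted p = 0.00874). Calu (chr6:29348069-29377110, plus strand), which encodes the calcium-binding calumenin of the secretory pathway, starts 287.8 kb from Lep. It was at 206.5 to 235.5 CPM against 286.4 to 352.8 CPM, again with no overlap (−0.50, SE 0.0613, adjusted p = 0.000633).

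Within 500 kb of Lep 12 other genes were measured, a window set after values were seen. Rbm28 and Calu were the 2 that passed, both lower, beside 2.32% of all genes called lower. Between them in position, Prrt4 had −0.78 (SE 0.287, adjusted p = 0.11), Impdh1 −0.22 (SE 0.122, adjusted p = 0.287) and Hilpda, the hypoxia-induced inhibitor of lipolysis, −0.41 (SE 0.204, adjusted p = 0.234). The 3 largest positive values in the window rested on control 3 or control 6, the libraries with organ transcripts: Flnc, the filamin of muscle, was at 281.5 CPM in control 3 and at most 25.97 CPM in the other low-leptin libraries. Ccdc136 was at 160.5 CPM in control 6 and 26.66 CPM in control 3, and Fam71f2 at 28.47 CPM in control 6. Without the 4 organ or epithelial libraries these 3 genes had 0.12, −0.74 and −0.37. Strand use in counting is not given in the sources used here, so reads of overlapping genes cannot be told apart.

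**Figure D4:**
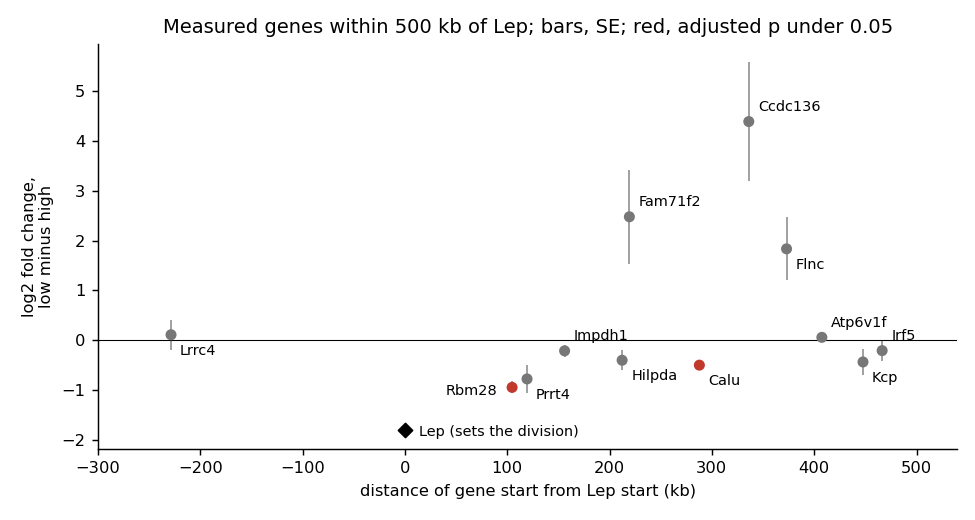
Log2 fold change with SE (vertical axis) of the 12 measured genes within 500 kb of Lep, by the distance of their start from the Lep start in kb (horizontal axis); red points have an adjusted p under 0.05 and the black diamond is Lep, which set the division. Rbm28 at 104.8 kb and Calu at 287.8 kb are red, and Flnc, Ccdc136 and Fam71f2 stand high through control 3 and control 6.

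The higher genes were fewer. Of the 222, 70 had their highest level of all libraries in control 3, 52 in control 6, 37 in control 1, 22 in let-7d 5, 21 in let-7e 4 and 7 in control 4, whereas the highest levels of the 381 lower genes were spread over the 11 high-leptin libraries (77 in let-7d 4 at most). Without control 3, 82 genes were called higher, and the count was lower still without control 2 (55), let-7d 3 (58), let-7e 5 (61), let-7d 4 (73) or let-7d 6 (81), high-leptin libraries in which none of the 222 had its highest level. Control 3 is also the library with the highest smooth muscle and epididymis sums, whose part in these calls was not tested.

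Cfd, the fat cells' complement factor D or adipsin (chr10:79890853-79892655), was the higher adipokine. It stood at 8571, 6107, 7060, 7903, 7813 and 14070 CPM in control 1, 3, 4, 6, let-7d 5 and let-7e 4, and at 2621 to 6170 CPM on the high side (median 3780). The sides overlapped by 1 library, let-7e 1 at 6170 CPM. The log2 fold change was 1.10 (SE 0.22, edgeR adjusted p = 0.0135), a 2.15-fold higher level, and it was 1.17 with the group as a term (adjusted p = 0.0406), 1.30 without the 4 organ or epithelial libraries (adjusted p = 0.014) and 1.45 in the let-7 libraries alone (adjusted p = 0.0588). Nampt, the enzyme of NAD salvage that is also secreted, was at 150.7 ± 18.17 against 121.0 ± 14.4 CPM (0.36, adjusted p = 0.046), a call lost on leaving out any 1 of 12 libraries. These were 2 of 19 measured adipokines, beside 1.35% of all genes called higher, and none fell. Adipoq itself was at 3390 ± 946.8 against 3028 ± 681.2 CPM (0.11, SE 0.206, adjusted p = 0.774), and Retn, resistin, at 1642 ± 388.1 against 1659 ± 413.6 CPM (−0.12, SE 0.184, adjusted p = 0.718).

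Of the 10 higher genes with the smallest p-values, Hsd11b1, which makes active glucocorticoid inside the cell, was at 189.8 to 335.9 CPM against 103.7 to 189.4 CPM. Every low-leptin library was above every high-leptin one, with control 3 at 189.8 CPM and let-7e 3 at 189.4 CPM the closest pair (0.95, SE 0.178, edgeR adjusted p = 0.01; 0.97 with the group as a term, adjusted p = 0.0636). Grik5, a kainate receptor subunit, was at 16.08 to 29.49 CPM against 6.216 to 13.72 CPM, also with no overlap (0.97, SE 0.161, adjusted p = 0.00519). Pdk2, which inhibits pyruvate dehydrogenase, was at 217.2 ± 41.15 against 108.5 ± 31.46 CPM (0.78, SE 0.144, adjusted p = 0.00907). Cp, the copper oxidase ceruloplasmin, was at 243.2 ± 54.43 against 144.3 ± 37.64 CPM (0.92, SE 0.169, adjusted p = 0.00911). Cyp2f2, a cytochrome P450, was at 13.74 to 59.34 CPM against 3.003 to 19.33 CPM (1.94, SE 0.364, adjusted p = 0.01). Each of these passed without the 4 organ or epithelial libraries.

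The others of the 10 were Cabp4 (1.34), Tro (0.83), the RNA kinase Clp1 (0.46), the transfer RNA modifier Qtrt2 (0.42) and the glutathione reductase Gsr (0.34), with edgeR adjusted p between 0.00646 and 0.01. Cabp4 was at 3.76 ± 1.102 against 1.693 ± 0.5084 CPM and Tro at 1.477 ± 0.1984 against 0.9465 ± 0.1923 CPM. Both are low levels, and the sides overlapped. For Gsr and Qtrt2 the difference stood within the late series and not across all libraries. Gsr was at 52.73 to 70.01 CPM on the low side and 44.13 to 48.8 CPM in the late high-leptin libraries, but the early high-leptin libraries were at 62.86 to 72.39 CPM. Qtrt2 was at 10.2 to 11.53 CPM on the low side, at 7.066 to 9.977 CPM in late high-leptin libraries and at 11.66 to 12.09 CPM in early ones. With the group as a term Cabp4 (adjusted p = 0.0229), Tro (0.0282) and Cyp2f2 (0.0494) still passed, which with Cfd makes 4 of the 5 genes called higher there. The other was the long noncoding RNA AI838599, named after its values were seen, at 5.853 ± 2.059 against 2.587 ± 0.9943 CPM (1.37, adjusted p = 0.0135; 1.47 with the group as a term, adjusted p = 0.0429).

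Fat synthesis did not follow the division as a whole. Of 25 lipogenic genes 1 was called, near the background of 1.35%, and 19 lay above 0, beside 57.6% of all genes. The median was 0.41, which fell to 0.14 with the group as a term, −0.32 without control 1 and control 4 and −0.19 in the let-7 libraries alone. Without the 4 organ or epithelial libraries, where controls 1 and 4 are 2 of the 3 low-leptin libraries left, it was 0.73 with 5 genes called, among them Elovl6 (2.45, adjusted p = 0.0397), Acaca (1.47, adjusted p = 0.0285) and Acacb (1.47, adjusted p = 0.0443). Fasn, fatty acid synthase, was at 33490 CPM in control 1, 20720 in control 4, 8412 in let-7d 5, 6875 in control 3, 4338 in let-7e 4 and 3080 in control 6. The high-leptin libraries spanned 4297 to 11000 CPM, so low-leptin libraries lay both above and below all of them (0.65, SE 0.445, edgeR adjusted p = 0.386). Elovl6, which lengthens palmitate, showed the same order of extremes, from 706.8 CPM in control 1 to 21.93 CPM in control 6 against 32.07 to 136.2 CPM (1.70, SE 0.639, adjusted p = 0.119). Acly (0.93, adjusted p = 0.255), Acaca (0.93, adjusted p = 0.14), Acacb (1.08, adjusted p = 0.0731) and Scd1 (0.41, adjusted p = 0.281) were likewise highest in control 1. Dgat2, which completes triglyceride, had −0.77 (SE 0.268, adjusted p = 0.097), and −1.17 without control 1 and control 4 (edgeR adjusted p = 0.0213). Apart from let-7e 4, the low-leptin libraries left without these controls are control 3, control 6 and let-7d 5, which hold organ or epithelial transcripts.

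The called gene was Fads1, a desaturase of polyunsaturated fatty acids, at 452.7 CPM in control 3 and 93.22 to 163.0 CPM in the other low-leptin libraries, against 60.91 to 145.8 CPM (1.16, SE 0.303, edgeR adjusted p = 0.0454). Without control 3 its log2 fold change was 0.65, and the call was lost on leaving out any 1 of 13 libraries. Fads1 was nevertheless called without the 4 organ or epithelial libraries, control 3 among them (0.73, edgeR adjusted p = 0.0228). It was also called without control 1 and control 4 (1.33, adjusted p = 0.0294). Fads2, its partner, stood at 801.1 CPM in control 3 against at most 85.18 CPM in the other low-leptin libraries (2.79, adjusted p = 0.0515).

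None of 16 adipogenic transcription factor genes was called. Pparg, the master regulator of fat-cell formation, was at 181.7 ± 39.96 against 214.5 ± 29.55 CPM (−0.29, SE 0.136, edgeR adjusted p = 0.201). Nor was any called of 20 lipolysis and lipid droplet genes, where Pnpla2, the first triglyceride lipase, had 0.35 (adjusted p = 0.342), Plin1 −0.21 (adjusted p = 0.441) and Lpl, lipoprotein lipase, −0.50 (SE 0.165, adjusted p = 0.0842). Of 18 adrenergic and cyclic AMP genes none passed, with Prkar2b, the regulatory subunit of protein kinase A in fat, at −0.48 (adjusted p = 0.101). The insulin-responsive glucose carrier Slc2a4 had 0.13 (SE 0.199, adjusted p = 0.724), and none of its list of 21 passed. None was called of 22 fatty acid oxidation, 21 citric acid cycle, 36 complex I, 24 cholesterol synthesis, 12 thermogenic and 18 hypoxia genes, nor of 8 messenger RNAs of the mitochondrial genome, whose list medians lay between −0.04 and 0.23. Without control 1 and control 4, genes called lower were 2 adipogenic, 3 lipolysis or droplet, 5 cholesterol and 3 hypoxia ones. The Slc2a4 list held 2, and the citric acid cycle and thermogenic lists 1 each. No gene of these lists was called higher there, and 672 of all 16451 genes were called lower. Pparg was then at −0.46 (edgeR adjusted p = 0.0448) and the cholesterol median at −0.32. The low side of that fit was let-7e 4 with control 3, control 6 and let-7d 5, which are libraries with organ or epithelial transcripts. In it 9 smooth muscle, 5 epididymis and testis and 4 epithelial genes were called higher. The part of such RNA in the lower calls was not tested. At the spread of these libraries a change that misses the threshold is not shown to be absent.

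The receptor and its signalling were measured in the same libraries. Lepr was at 1.923 to 8.399 CPM in low-leptin and 1.586 to 5.127 CPM in high-leptin libraries (0.72, SE 0.288, edgeR adjusted p = 0.134), with the highest value in control 3. Socs3, the feedback inhibitor induced by STAT3, had −0.28 (SE 0.17, adjusted p = 0.327) and Stat3 0.07 (SE 0.0715, adjusted p = 0.57). None of the 13 genes of the list passed, and their median was 0.07.

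**Figure D5:**
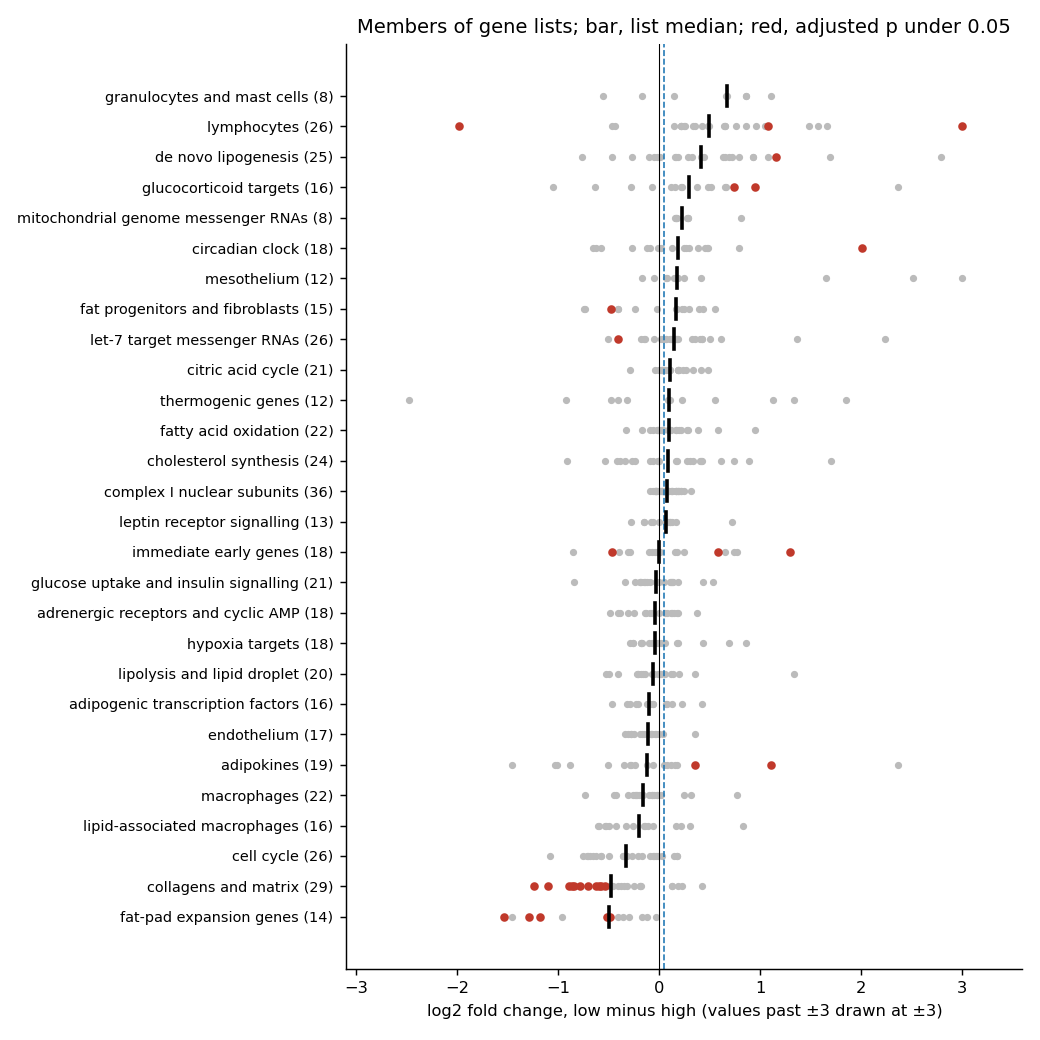
Log2 fold change (horizontal axis) of each measured member of 28 gene lists (number of members in brackets); black bars are list medians, red points have an adjusted p under 0.05 and the dashed line is the median of all genes, 0.05. The fat-pad expansion list (−0.50) and the collagen and matrix list (−0.47) have the lowest medians and the most members called lower.

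Of 26 measured lymphocyte genes 1 fell and 2 rose, beside 2.32% and 1.35% of all genes, and 1 of the 2 that rose, Gata3, rests on control 3. Most of the list lay on the other side from the gene that fell: 23 were above 0, beside 57.6% of all genes. The list median was 0.49, and it was 0.63 with the group as a term and 0.24 without the 4 organ or epithelial libraries. Ighm, the heavy chain of immunoglobulin M, was at 73.84, 116.7, 87.18, 384.3, 148.4 and 189.2 CPM in control 1, 3, 4, 6, let-7d 5 and let-7e 4, and at 393.1 to 1232 CPM on the high side (median 648.8). The sides did not overlap, though control 6 at 384.3 CPM lay close to let-7e 6 at 393.1 CPM, and the log2 fold change was −1.99 (SE 0.376, edgeR adjusted p = 0.0102; −1.82 with the group as a term, adjusted p = 0.0999). The T cell gene Cd4 was higher at 1.819 ± 0.629 against 1.063 ± 0.3992 CPM (1.08, adjusted p = 0.0363), which was lost on leaving out any 1 of 8 libraries, and the T cell receptor chain Trac had 1.66 (SE 0.517, adjusted p = 0.072). Gata3 was called at 4.14 (adjusted p = 0.0469), but it stood at 123.0 CPM in control 3 and at no more than 1.8 CPM in the other libraries, and without control 3 the value was 0.28. Without the 4 organ or epithelial libraries Trac was called (2.24, adjusted p = 0.0319). None passed of 22 macrophage genes (18 below 0, beside 42.4% of all genes) and 16 genes of lipid-associated macrophages, with Trem2 at −0.42 (adjusted p = 0.4) and Itgax at −0.53 (adjusted p = 0.271).

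Interferon-induced genes, a family picked after values were seen, lay above 0 in 29 of 30 cases, with a median of 0.46 and 4 called, beside 57.6% of all genes above 0 and 1.35% called higher. The regulator Irf7 was at 42.51, 65.42, 53.89, 34.2, 94.23 and 32.04 CPM in control 1, 3, 4, 6, let-7d 5 and let-7e 4, against 19.08 to 37.14 CPM, so that control 6 and let-7e 4 lay inside the high-leptin range (0.85, SE 0.206, edgeR adjusted p = 0.0363). Rtp4, Dhx58 and Mx2 had 0.75, 0.57 and 0.93 (adjusted p = 0.0379, 0.045 and 0.045), each with its highest level in let-7d 5. The calls of Irf7, Rtp4, Dhx58 and Mx2 were lost on leaving out any 1 of 6, 9, 12 and 13 libraries, and their values were lowest without let-7d 5, at 0.61, 0.58, 0.45 and 0.71. The antiviral genes Ifit1 (0.85, adjusted p = 0.0613) and Isg15 (0.80, adjusted p = 0.072) did not pass. Without the 4 organ or epithelial libraries the median was 0.30 and none passed.

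Calls in the next lists are few and are read against 1.35% of all genes called higher and 2.32% called lower; at 1 member of a list they are near that background. Of 16 glucocorticoid target genes 2 rose, Hsd11b1 above and the metallothionein Mt1 (170.9 ± 45.28 against 98.22 ± 24.65 CPM, 0.74, edgeR adjusted p = 0.0457, lost on leaving out any 1 of 12 libraries). Mt1 was called without the 4 organ or epithelial libraries (0.63, adjusted p = 0.00768) and in the late series alone (0.73, adjusted p = 0.0199). Of 18 immediate early genes Nr4a3 (1.30, adjusted p = 0.0393) and Myc (0.58, adjusted p = 0.0396) rose and Btg2 fell (−0.47, adjusted p = 0.0382), calls lost on leaving out any 1 of 9, 10 and 7 libraries. Of 26 let-7 target messenger RNAs 1 fell, E2f6, at 27.83 to 37.42 CPM against 37.91 to 47.72 CPM (−0.41, SE 0.0817, adjusted p = 0.0136), and the median was 0.15. The progenitor marker Cd34 fell by 0.48 (adjusted p = 0.0375, lost on leaving out any 1 of 8 libraries) as 1 of 15 genes of its list. None of 26 cell cycle genes passed and 22 lay below 0, beside 42.4% of all genes, with Mki67 at 6.3 ± 1.143 against 12.6 ± 5.883 CPM (−1.08, SE 0.322, adjusted p = 0.0637).

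Of the organ lists, 1 of 10 epididymis and testis genes and 2 of 12 smooth muscle genes were called higher, each with its highest level in control 3, beside 1.35% of all genes. Akr1b7, whose product reduces aldehydes in the mouse vas deferens, was at 14040 CPM in control 3, at most 4.134 CPM in the other low-leptin libraries and at most 17.28 CPM on the high side (11.61, SE 2.91, edgeR adjusted p = 0.0396). Without control 3 the value was 0.23, and reads shared with its close paralogs may have been counted to either. The smooth muscle genes Actg2 and Cnn1 stood at 1477 and 1641 CPM in control 3 and at no more than 27.16 and 24.4 CPM elsewhere (7.27 and 6.84, adjusted p = 0.0175 and 0.0295; without control 3, 2.88, still called, and 1.81, not called). The other low-leptin levels of Actg2 were 0.7253 CPM in control 4 and 6.359 to 27.16 CPM in the remaining 4, against 0.2096 to 4.336 CPM on the high side. Of 17 endothelial, 8 granulocyte and mast cell, 12 mesothelial and 13 epithelial genes none passed.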

How the data were processed

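RNA of epididymal white fat was sequenced in 17 libraries, and the authors deposited whole-number counts per gene. Alignment with STAR to GRCm38.p6 is named in the submitters' processing notes; the counting tool, its strand setting and versions are not given in the sources used here. Symbols and positions came from GENCODE M21. Members, gene lists and families were chosen with earlier results of these data known. Libraries were divided at a Lep level of 1000 counts per 1000000 of the column total (CPM). Counts of 16451 genes (all but Lep) were fitted with edgeR 4.0.16 (R 4.3.3; TMM scaling, robust quasi-likelihood, terms for identifier series and Lep side, 14 residual degrees of freedom) and p-values adjusted by Benjamini-Hochberg at 0.05. The biological coefficient of variation was 0.36. On simulated counts of 16452 genes built on this comparison, 70% of 100 genes planted at 2-fold and 91% of 100 at 4-fold were recovered, with 10 false calls. The simulated libraries had no series or group effect and no organ transcripts in single libraries, so these shares hold for a simpler setting than the data. DESeq2 1.42.0 and limma-voom (limma 3.58.1) were alternatives. Named genes were the 10 with the smallest p in each direction at a mean of 1 CPM or more, a panel of 32 genes, and up to 4 per list; some of these are not reported here. No 2 libraries agreed within sampling noise. The deposited RPKM table was not used.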

Additional observations from a re-analysis of the deposited data

Results flagged for a closer look

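In 19 of 150 groups tested, 1 library stood apart from the others of its group by Dixon's criterion. The high-leptin side has more libraries than the critical values used cover, so it was not tested in this way. Chance marks about 1 in 20 groups, a rough guide only, since the groups share genes and libraries. Values are TMM-scaled CPM unless another scale is named, and the group is the low-leptin side unless another is named. Control 3 stood low for Anxa2 at 455 (others 686 to 856.8), Ppic at 45.56 (61.83 to 70.71), Sparc at 2589 (3565 to 4161), Crtap at 56.63 (76.48 to 87.91) and P3h1 at 29.23 (40.1 to 47.72). It stood high for Fads1 at 452.7 (93.22 to 163), Gata3 at 123 (1.088 to 1.8), Akr1b7 at 14040 (0 to 4.134) and Flnc at 281.5 (14.87 to 25.97). Its mean log2 CPM was low for adipogenic transcription factors at 6.526 (others 6.982 to 7.173) and for glucose uptake and insulin signalling at 6.191 (6.452 to 6.553), and high for smooth muscle genes at 9.583 (3.61 to 5.444).

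Control 1 stood low for Col6a2 at 295.4 (others 414.9 to 496.8) and Col6a1 at 258.8 (421.3 to 514.2). Control 6 was high for Fam71f2 at 28.47 (0.3666 to 1.088) and in mean log2 CPM of lymphocyte genes at 2.262 (1.197 to 1.422), let-7 target messenger RNAs at 5.346 (4.8 to 4.957) and tubulins at 5.146 (3.52 to 4.045). Among the 6 let-7e libraries, let-7e 4 stood low for Lep at 508.6 CPM of the column total (others 1414 to 1796).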

How the results depend on the processing

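All 4 early libraries are high-leptin, and 4 of the 6 low-leptin libraries are controls, so series and group are partly tied to the division. Of the 603 genes called (222 higher, 381 lower), counts moved by over 1.5 times under these settings: the DESeq2 Wald test 1658 (807 and 851), a group term 69 (5 and 64), no series term 1037 (560 higher), the late series alone 130 higher, Lep as a continuous measure 359 higher, the let-7 libraries alone 6 (1 and 5), an adjusted p of 0.1 1939 (1074 and 865), and leaving out controls 1 and 4 together 1612 (940 and 672). A replicate block gave 256 calls (68 and 188). The labels do not say that equal numbers share an animal, and of 16 same-number pairs 6 correlated above 0.1 (r from -0.33 to 0.496), so the numbers were not taken to pair libraries. Genes with all low-leptin libraries higher numbered 24 with column-total CPM. A Lep threshold of 750 CPM, limma-voom, DESeq2 size factors and a minimum of 5 CPM left the total within 1.5 times. At 750 CPM control 6 moved to the high side and 496 genes passed. Of the 603 genes, 266 were called again there and 593 kept their sign. No library lay between 835.6 and 1414 CPM, so the threshold tried above 1000 CPM gave the same division and could not test the choice.

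Leaving out 1 library each, calls ranged from 258 (without control 2) to 1103 (without let-7d 1), higher calls from 55 to 527 and lower calls from 203 to 576. The total also fell by over 1.5 times without control 3 (371), let-7d 3 (286), let-7d 4 (361), let-7d 6 (314) and let-7e 5 (279). With the group term the range was 0 (smallest adjusted p 0.155) to 141. Non-overlapping genes ranged from 98 to 154 lower and from 37 to 70 higher. Leaving out a library can only keep or add such genes, so these counts could not fall below the 97 and 37 of all libraries.

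Uncalled or library-bound log2 values changed sign, and the cause was not tested. Without controls 1 and 4 and in the let-7 libraries alone, in that order, these were Nnat 0.033 and 0.19, Fasn -0.52 and -0.44, Acly -0.34 and -0.32, Elovl6 -0.26 and -0.50 and Slc2a4 -0.18 and -0.17. Without controls 1 and 4 Scd1 was -0.051 and Acaca -0.000774. In the let-7 libraries alone Akr1b7 was -3.79, Socs3 0.069, Ccdc136 -0.21 and Fam71f2 -0.22. At 750 CPM Ccdc136 was -1.735 and Fam71f2 -2.63. Without the 4 organ or epithelial libraries Ccdc136 was -0.74, Fam71f2 -0.37 and Retn 0.10. Retn was 0.012 by limma-voom and 0.010 with continuous Lep, and Impdh1 0.072 without the series term. Leaving out 1 library each, Slc2a4 ranged from -0.033 (without control 4) to 0.23 and Fam71f2 from -0.43 (without control 6) to 2.74.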
